A study of Brassica juncea with 4 samples.

Results

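The 300 sequences described here gave the brightest signal in wild-type leaves among the 40642 source sequences on a Brassica napus oligonucleotide array. The plants were Brassica juncea (Indian mustard) of the cultivar RLM-198, either wild type or transgenic BnCRY2aOE, which overexpresses BnCRY2a, a cryptochrome 2 gene of B. napus. Leaves were taken at 45 days after sowing with no treatment, and there were 2 wild-type and 2 BnCRY2aOE arrays, described in the labels as biological replicates. The sources used here do not give the promoter of the transgene, how many transgenic lines there were or how many plants stand behind an array, so p-values measure only the spread between these samples. Each sequence was represented by its probe with the highest mean level over the 2 wild-type arrays, and the 300 with the highest such mean were kept. Level means log2 processed signal minus the array's 75th percentile. Wild-type levels chose these sequences, so they are given as a description.

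Cryptochromes are blue-light photoreceptors that adjust the activity of many nuclear genes to light. In a mature leaf, known abundant messengers include those for chlorophyll-binding proteins, the small subunit of Rubisco and other parts of photosynthesis. The files pair neither a probe nor a source sequence with a gene name. Which of the 300 encode such proteins was therefore not analysed here, nor was the level of BnCRY2a itself or of leaf marker genes. Sequences are named below by the source identifier and the probe ID that the files give.

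The 4 arrays lay on 1 slide and were read in 1 scan. The scaling value, the array's 75th percentile, lay between 217 and 254 brightness units. From 29420 to 31131 of 43603 probes exceeded background clearly by the scanner software's mark, here called well above background, and the 300 chosen probes did so on all 4 arrays. No spot was saturated: the highest raw median brightness was 441110 units, where the lowest saturation value in the file headers was 778423. The number of arrays, 2 per genotype, limits the precision.

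Probes of the same sequence differed widely in brightness, so the level of a probe is not a measure of abundance by itself. Of the 300 sequences, 68 had 2 or more probes, with 102 other probes beside the chosen ones. In the BnCRY2aOE arrays, which played no part in the choice, the chosen probe was still the brightest of its sequence in 64 of the 68. There the median excess over the other probe was 1.78 in log2 units, 3.44-fold, with quartiles of 0.60 and 3.75. Only 39 of the 102 other probes were within 1 log2 unit of the chosen one. At the far end, 15 other probes from 14 sequences lay at least 8 log2 units lower, with none between 5.99 and 8.24. Of these 15, 7 were not well above background on any array and 5 were well above it on all 4. Identifiers starting with EV held 11 of the 15 and those starting with TA held 3, although EV held 25 and TA 63 of the 102. The order of the 300 is therefore an order of brightness, and they are called the brightest sequences here.

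**Figure D1:**
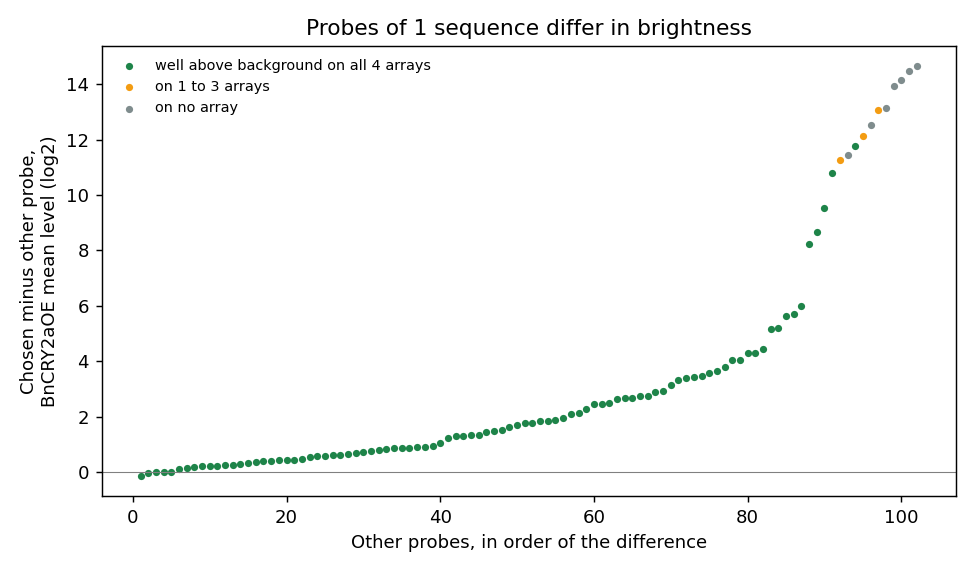
Level of the chosen probe minus that of each of the 102 other probes of the same sequence, as means over the 2 BnCRY2aOE arrays on the log2 scale (vertical axis), in increasing order (horizontal axis). Each point is 1 other probe, coloured by the number of arrays on which it was well above background, and 15 points lie at 8 or more.

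Of the 300, 2 had the most probes, 6 each. The probes of CN826126 spanned wild-type means from 4.52 to 9.73, and those of DT469123 from -0.64 to 7.36. The 6 probes of CN826126 nevertheless gave similar differences between the genotypes, from -0.47 to -0.10 on the log2 scale. Those of DT469123 ran from -0.32 to 0.27. None of these 12 differences passed the threshold of an adjusted p under 0.05 (limma, the lowest adjusted p was 0.94). Probes of 1 sequence share their source and are not replicates.

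Wild-type mean levels fell steeply along the 300, from 10.84 at rank 1 to 6.06 at rank 300, a range of 27.4-fold, with a median of 7.33. A level of 10 or more was reached by 8 sequences, of 9 or more by 30, of 8 or more by 89 and of 7 or more by 180. The 300 are 0.738% of the sequences. With 1 probe per sequence they held 52.9% and 53.5% of the summed processed signal in wild type replicates 1 and 2, and 50.7% and 51.5% in BnCRY2aOE. The brightest 10 alone held 9.21% and 8.83% in wild type and 7.59% and 8.52% in BnCRY2aOE. Both shares were lower on each BnCRY2aOE array than on either wild-type array. An exact permutation test of 2 arrays against 2 cannot go below p = 0.333 (two-sided), so none was run, and wild-type signal chose the 300.

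**Figure D2:**
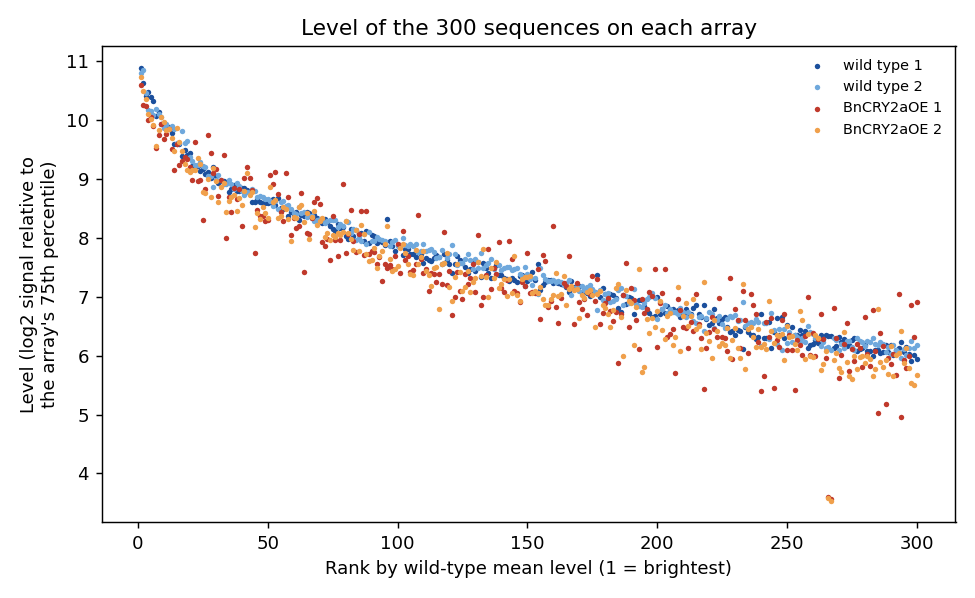
Level of each of the 300 sequences on each array (vertical axis, log2 processed signal minus the 75th percentile of its array) by rank of the wild-type mean (horizontal axis). Each point is 1 sequence on 1 array. The wild-type points run from 10.89 to 5.90, and the 4 lowest BnCRY2aOE points, near 3.6, belong to 2 sequences.

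At the top stood TA21637_3708 (probe A_46_P136769), with levels of 10.89 and 10.79 in wild type and 10.59 and 10.74 in BnCRY2aOE. Next was EV091861 (A_46_P139019), at 10.64 and 10.85 in wild type and 10.25 and 10.50 in BnCRY2aOE. EV099385 (A_46_P010811) followed at 10.41 and 10.45 against 10.24 and 10.36. In each of these 3 both BnCRY2aOE arrays lay below both wild-type arrays, as in 19.7% of all tested probes, by less than 0.4 in the mean. After quantile normalization the difference turned to 0.11 for TA21637_3708 and 0.10 for EV099385, and it was -0.11 for EV091861. With spike-in scaling it was -0.01, 0.04 and -0.20 in the same order. TC200397, CN728694, H07414, TA22155_3708, TA23572_3708, EV098976 and TA32473_3708 filled ranks 4 to 10. All 10 had a lower mean in BnCRY2aOE under the 75th percentile scaling, and 8 of them lay below without overlap, beside 19.7% of tested probes. The counts depended on the scaling: 5 of the 10 were lower and 5 higher after quantile normalization. Then 3 lay below without overlap and 1 above, beside 18.8% and 14.7% of tested probes. With spike-in scaling 7 were lower and 3 higher. Of the 10, 2 then lay below without overlap and 1 above, beside 6.81% and 22.2% of tested probes. Quantile normalization gives every array the same set of values, so among the brightest it shows little beyond changes of rank. A fall shared by all of the brightest would not show after it. The log2 differences of the 10 ran from -0.59 to -0.01, and none passed the threshold (limma, adjusted p from 0.63 to 1.00). EV098976 had the smallest, with 9.94 and 10.06 in wild type and 9.94 and 10.05 in BnCRY2aOE. Of the wild-type 10, 8 were also among the 10 brightest in BnCRY2aOE, and of the wild-type 20, 18 were among its 20 brightest.

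Around the limit of the choice, levels changed little from rank to rank. EV166359, EV173471 and TA20860_3708 were just inside, with wild-type means of 6.07, 6.07 and 6.06. TA31455_3708, TA21741_3708 and EV170912 were just outside, with 6.06, 6.06 and 6.05. The order of these 6 lay within the spread of the wild-type replicates.

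The brightest sequences of wild type were largely the brightest of BnCRY2aOE too. Of the 300, 278 (92.7%) were among the 300 brightest sequences by the BnCRY2aOE mean, which the choice did not use. Among the 22 others, 20 were between ranks 303 and 387 there, and TA21407_3708 and TA21413_3708 were at ranks 1505 and 1545. The 22 sequences that took their places came from wild-type ranks 301 to 428, with 1 exception. That exception, EV169294 (A_46_P257444), is named because of its values: it was at wild-type rank 5910, with a level of -6.20 and not well above background in wild type replicate 1. Its level was 5.59 in wild type replicate 2, 5.84 in BnCRY2aOE replicate 1 and 6.12 in BnCRY2aOE replicate 2, so 1 wild-type array stood apart from the other 3. It did not pass the test between genotypes (limma, adjusted p = 0.97), and none of the 22 did.

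Array by array, 292 and 291 of the 300 were among the 300 brightest of wild type replicates 1 and 2, and 265 and 273 among those of BnCRY2aOE replicates 1 and 2. In all, 247 sequences were among the 300 brightest on each of the 4 arrays. Across the 300 sequences, levels correlated at r = 0.985 between the wild-type arrays and at r = 0.918 between the BnCRY2aOE arrays. The 4 pairs across genotypes gave 0.917 to 0.958. These are descriptions over sequences that share probe design and scan, and the choice on the wild-type mean bears on the wild-type values.

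Large differences between the genotypes were rare among the chosen probes of the brightest sequences. By limma, with an adjusted p under 0.05 over all 29949 tested probes, 2 of the 300 were called, both lower in BnCRY2aOE and 0 higher. Of all tested probes 0.454% were called, 0.257% lower and 0.197% higher, so the count of 2 is near that background. An unadjusted p under 0.05 (limma) was reached by 10 of the 300, all 10 lower, and by 6.35% of tested probes, 3.4% lower. The means differed by 2-fold or more in the 2 called sequences alone, both lower, and in 4.55% of tested probes, 2.0% lower and 2.54% higher. At an adjusted p under 0.1 (limma) the count stayed at 2, beside 0.594% of tested probes. Among the other 298, log2 differences lay between -0.84 and 0.65, that is, 1.79-fold lower to 1.57-fold higher, with adjusted p of at least 0.60 (limma). The wild-type values entered both the choice and this contrast, so the counts are a description. They take only the chosen probe of each sequence. Of the 94 other probes tested, 2 were called, both of TA22155_3708, at rank 7. Their log2 differences were -4.12 and -5.55 (limma, adjusted p = 0.0091 and 0.0063).

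**Figure D3:**
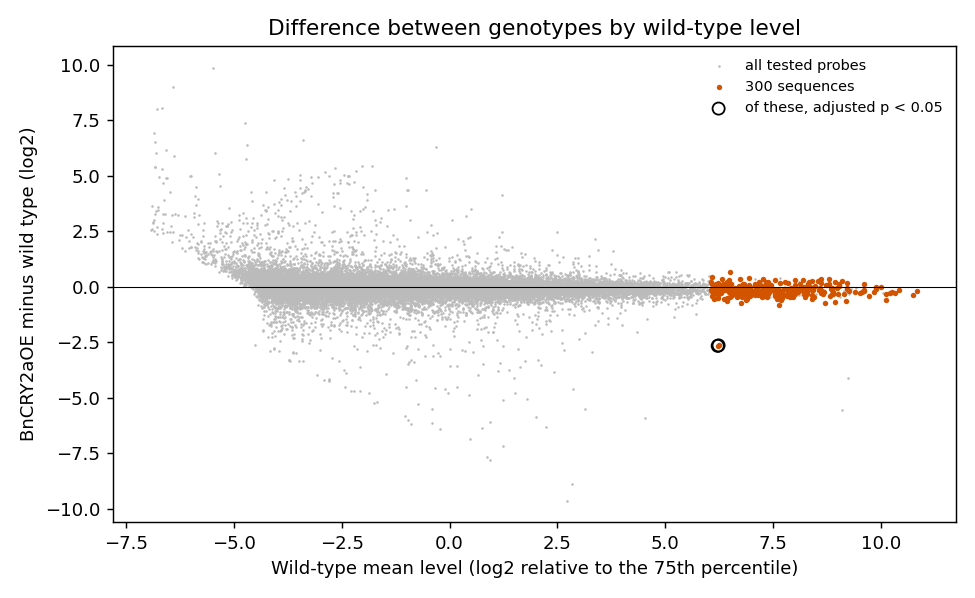
BnCRY2aOE minus wild type on the log2 scale (vertical axis) against the wild-type mean level (horizontal axis) for the 29949 tested probes in grey. The 300 sequences, each by its chosen probe, are in orange. The ring marks the 2 sequences with an adjusted p under 0.05, which nearly coincide at -2.65 and -2.67; the other 298 lie between -0.84 and 0.65.

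Both called sequences fell about 6-fold in BnCRY2aOE, from nearly the same level. TA21407_3708 (A_46_P136069), at wild-type rank 266, had levels of 6.33 and 6.15 in wild type and 3.59 and 3.59 in BnCRY2aOE. TA21413_3708 (A_46_P136094), at rank 267, had 6.34 and 6.09 against 3.56 and 3.54. The genotypes were far apart in both, and on each array the 2 probes differed by at most 0.06. The change was -2.65 ± 0.18 (log2, SE, n = 2 arrays per genotype) for TA21407_3708, 6.26-fold lower, with an adjusted p of 0.024 (limma). For TA21413_3708 it was -2.67 ± 0.19, 6.35-fold lower, with an adjusted p of 0.026 (limma). Whether the 2 probes can bind the same transcript was not tested, and each sequence had 1 probe. In processed signal, TA21407_3708 was at 17628 and 16099 units in wild type and at 3069 and 2617 in BnCRY2aOE, well above background on all 4 arrays. Their direction was kept in the alternatives, but the calls were lost in some. Without wild type replicate 1, wild type replicate 2 or BnCRY2aOE replicate 1, the adjusted p of TA21407_3708 was 0.190, 0.076 and 0.059, and that of TA21413_3708 0.190, 0.072 and 0.068. Without BnCRY2aOE replicate 2 they were 0.047 and 0.056. With dim probes kept in the test they were 0.078 and 0.082, and with the replicate number as a block both were 0.129. After the planned normexp background correction, under which 0 of all tested probes were called, they were 0.31 and 0.33 (limma throughout). Both sequences stayed called when normexp was fitted without marked spots, those marked as outliers in signal or background.

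Most of the 300 were slightly lower in BnCRY2aOE under the 75th percentile scaling. The size of this shift depended on the scaling, with a median of 0.00 under spike-in scaling. The mean was lower for 232 sequences and higher for 68, where 53.0% of all tested probes were lower. The median difference was -0.17 on the log2 scale, with quartiles of -0.31 and -0.02, beside a median of -0.02 over all tested probes. Both BnCRY2aOE arrays lay below both wild-type arrays for 139 sequences and above for 11, while 19.7% and 14.5% of all tested probes did so. With arrays scaled on the 9 spike-in control probes instead, 148 of the 300 were lower and 152 higher. Of all tested probes 27.8% were then lower. The median of the 300 was 0.00, and that of all tested probes moved to 0.15. Then 42 of the 300 lay below without overlap and 19 above, beside 6.81% and 22.2% of tested probes. The spike-in mean minus the 75th percentile (log2) was 3.34 and 3.46 in wild type and 3.02 and 3.44 in BnCRY2aOE. Only BnCRY2aOE replicate 1 lay outside the wild-type values, so this scaling moved mainly that array. Relative to the median of all tested probes, the median of the 300 was -0.15. Scaling by 1 value per array, whichever it is, leaves this relative value as it is by arithmetic, so its agreement between such scalings is no check. Of the methods that can move it, quantile normalization, which gives every array the same set of values, gave -0.03. The planned normexp background correction gave -1.03. Its fit estimated background means of -31.7 and -295 brightness units on BnCRY2aOE replicates 1 and 2, against 4.37 and 3.03 without marked spots. Normexp without marked spots gave -0.13, with 225 sequences lower and 75 higher. After quantile normalization the median was -0.05, with 174 sequences lower and 126 higher. In leaf tissue, fewer cells of a type and less RNA per cell cannot be told apart by these signals.

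Wild-type values both chose the 300 and entered the difference, so the difference was also computed for 300 sequences chosen in other ways. With sequences chosen by the BnCRY2aOE mean, the median difference was -0.14 and 212 of 300 were lower, beside 53.0% of all tested probes. Chosen by the mean of all 4 arrays it was -0.15, with 223 lower. With sequences chosen by wild type replicate 1 alone and compared with wild type replicate 2 alone, the median was -0.19 and 234 were lower, beside 52.5% of tested probes. The reverse choice gave -0.15, with 213 lower, beside 54.0%. The sets chosen by BnCRY2aOE and by all arrays shared 278 and 289 sequences with the 300, so these are not separate observations. Within the 300, the median was -0.16, -0.20 and -0.15 for ranks 1 to 100, 101 to 200 and 201 to 300. The next 300 sequences, at ranks 301 to 600, had a median of -0.13, with 208 lower, 97 below without overlap and 9 above, beside 53.0%, 19.7% and 14.5% of tested probes. Of these 300, 0 were called (limma, 11 at an unadjusted p under 0.05), beside 0.454% and 6.35%. The difference between the 300 and these neighbours was not tested.

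The BnCRY2aOE replicates differed more from each other than the wild-type replicates did. For the 300, the median absolute difference between replicates was 0.28 on the log2 scale in BnCRY2aOE and 0.11 in wild type. Over all tested probes the same values were 0.34 and 0.16. The wild-type arrays were less than 2-fold apart for all 300, while the BnCRY2aOE arrays were at least 2-fold apart for 14, 9 higher in replicate 1 and 5 higher in replicate 2. Among all tested probes this held for 3.2% in wild type and 10.9% in BnCRY2aOE. For 79 of the 300 both wild-type arrays lay between the 2 BnCRY2aOE arrays. The share of all tested probes with this pattern was not computed, so 79 is not shown to be particular to the 300. The difference in BnCRY2aOE grew down the ranks, with medians of 0.19, 0.27 and 0.36 for ranks 1 to 100, 101 to 200 and 201 to 300, as did that in wild type, with 0.08, 0.12 and 0.15. Wild-type values chose the sequences, and the difference between the genotypes' spreads was not tested.

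**Figure D4:**
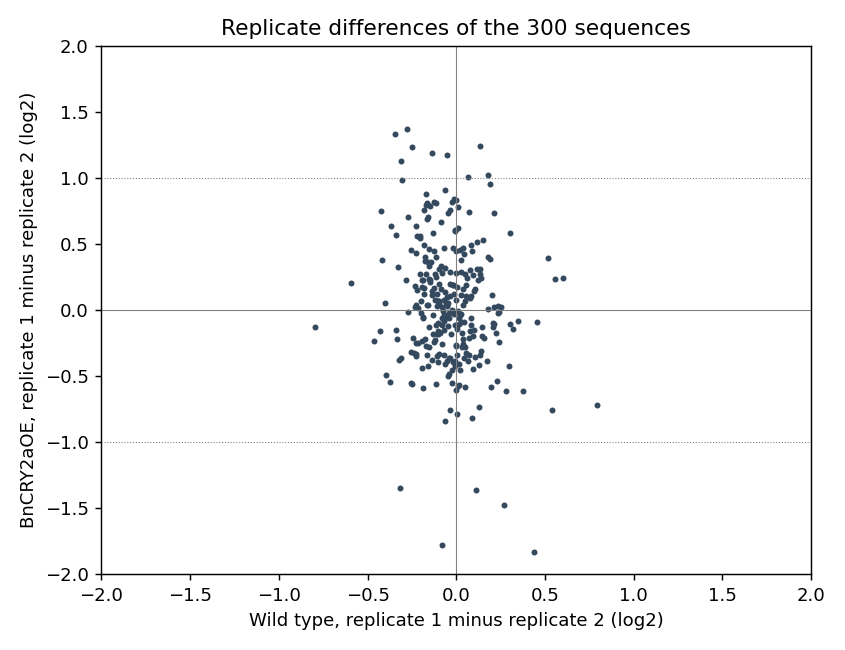
Replicate 1 minus replicate 2 on the log2 scale for each of the 300 sequences, in wild type (horizontal axis) and in BnCRY2aOE (vertical axis), with dotted lines at a 2-fold difference. The 14 points beyond the dotted lines have BnCRY2aOE replicates at least 2-fold apart, 9 above and 5 below; no point reaches a 2-fold difference in wild type.

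The largest BnCRY2aOE replicate differences were those of TA21178_3708 and EV091288. TA21178_3708 (A_46_P135269) had levels of 6.86 and 6.42 in wild type and 5.43 and 7.26 in BnCRY2aOE. EV091288 (A_46_P147969) had 6.10 and 6.18 in wild type and 5.02 and 6.80 in BnCRY2aOE. In both the wild-type arrays lay between the 2 BnCRY2aOE arrays, and their mean differences of -0.30 and -0.23 were far inside that spread (limma, adjusted p = 0.99 and 1.00). In wild type the largest differences were those of TA31906_3708 and TA26297_3708. TA31906_3708 (A_46_P169524) had 6.11 and 6.91 in wild type and 7.09 and 7.22 in BnCRY2aOE. TA26297_3708 (A_46_P017076) had 8.31 and 7.52 in wild type, against 7.49 and 8.21 in BnCRY2aOE. The former had the highest BnCRY2aOE minus wild type value of the 300, 0.65 ± 0.32 (log2, SE, n = 2 arrays per genotype), which did not pass the threshold (limma, adjusted p = 0.93).

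Other probes of the same sequences mostly gave replicate differences of the same sign. Of the 102 other probes, 92 were well above background on all 4 arrays, and in 80 of these the difference between the BnCRY2aOE replicates had the sign of that in the chosen probe. Where the chosen probe differed by at least 0.5 between the BnCRY2aOE replicates, this held for 21 of 21 other probes, from 14 sequences, and 17 of the 21 differed by at least 0.5 too. A probe of TA20874_3708, named because of its values, went the other way, with a difference of -0.63 against 0.10 in the chosen probe. Across the 92 probe pairs the correlation was r = 0.912, and for the wild-type replicates r = 0.696. These are descriptions, since pairs share a sequence and 2 arrays. EV166359, at rank 298, had 3 probes that ran together. Its chosen probe was at 6.87 and 5.53 in BnCRY2aOE, and the other probes were at 6.12 and 4.89 and at 6.23 and 5.02. In wild type the 3 were at 5.90 and 6.25, 5.20 and 5.52, and 5.14 and 5.46. Each of the 3 probes was thus high in BnCRY2aOE replicate 1, low in BnCRY2aOE replicate 2 and intermediate in wild type, at different brightness.

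**Figure D5:**
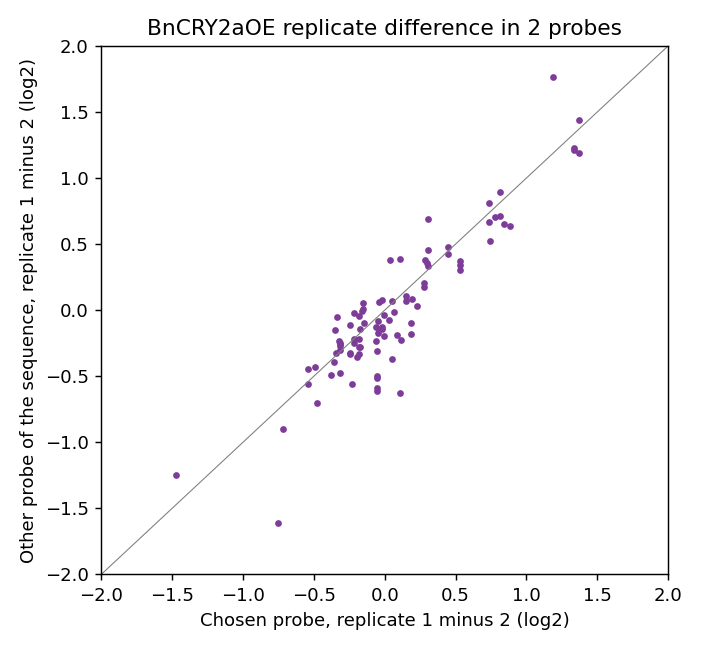
BnCRY2aOE replicate 1 minus replicate 2 on the log2 scale in the chosen probe (horizontal axis) and in another probe of the same sequence (vertical axis), for the 92 other probes well above background on all 4 arrays. Sequences with several other probes give several points at 1 horizontal position, the line marks equal differences, and the points follow it (r = 0.912).

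Repeated spots measured the error within an array. Of the 300 probes, 298 were printed once and 2 were printed 5 times, AJ271162 (A_46_P009316) and EV102166 (A_46_P034951). The SD over the 5 spots was between 0.06 and 0.13 on the log2 scale on the 4 arrays. EV102166 had mean levels of 6.12 and 6.23 in wild type, against 5.81 and 5.99 in BnCRY2aOE. The scanner software gave an error of 10% of the processed signal for each of the 300 probes on each array, so that column did not tell the probes apart.

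In the difference between genotypes, the probes of a sequence mostly ran together as well. Over the 92 other probes well above background on all arrays, the absolute gap between the probe's log2 difference and that of the chosen probe had a median of 0.07 and was under 0.25 for 80. The direction was shared by 77 of the 92. The median difference of these other probes was -0.16, with 65 of 92 lower in BnCRY2aOE. A gap of 1 or more occurred for 2 of the 92, both of TA22155_3708, at wild-type rank 7. Its chosen probe (A_46_P327905) was at 10.06 and 10.20 in wild type and 9.52 and 9.56 in BnCRY2aOE, a difference of -0.59 ± 0.17 (log2, SE, n = 2 arrays per genotype) that did not pass the threshold (limma, adjusted p = 0.63). The second probe was at 9.17 and 9.29 in wild type and at 5.14 and 5.08 in BnCRY2aOE (limma, adjusted p = 0.0091). The third was at 9.04 and 9.14 against 3.47 and 3.62 (limma, adjusted p = 0.0063). These 2 were the only called ones among the 94 other probes that were tested. In all 3 probes of this sequence both BnCRY2aOE arrays lay below both wild-type arrays. Their log2 differences were -0.59, -4.12 and -5.55, and the brightest did not pass the threshold. This sequence's other probes are described because of their values.

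The 300 were unlike the array in the kind of source sequence, which the choice did not use. Identifiers starting with TA made up 139 of the 300 (46.3%) and 15.0% of all 40642 sequences. Those starting with TC were 12.3% of the 300 and 17.9% of the array, and those starting with EV were 42 of the 300 and 17.0% of the array. More than 1 probe was held by 22.7% of the 300 and 6.16% of all sequences. A sequence with several probes is represented by its brightest, which favours it in the choice. Among sequences with 1 probe, TA identifiers still made up 40.5% of those in the 300 and 13.8% of those on the array. The median difference between genotypes was -0.17 both for sequences with 1 probe and for those with several.

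Among the 139 TA sequences, 34 had a neighbour in number (the next or the previous number) that was also among the 300, in 20 pairs. Some sequences were in more than 1 pair, so the pairs are not separate observations. How many such neighbours other sets of TA sequences would have was not computed. Within a pair the log2 differences between the genotypes were 0.08 apart in the median, beside 0.23 over all pairs of the 139. The BnCRY2aOE replicate differences were 0.21 apart within a pair and 0.43 over all pairs. The BnCRY2aOE replicate differences had opposite signs in 7 of the 20 pairs and the differences between genotypes in 1. A close pair and the pair farthest apart, both chosen after their values were seen, show the range. TA20679_3708 had levels of 6.40 and 6.67 in wild type and 7.32 and 5.95 in BnCRY2aOE. TA20680_3708 had 6.72 and 6.86 against 7.48 and 6.29, so both were high in BnCRY2aOE replicate 1 and low in replicate 2. The pair farthest apart in the difference between genotypes was TA22157_3708 and TA22158_3708, with -0.23 and -0.73, a gap of 0.50, and neither passed the threshold. Their BnCRY2aOE replicate differences were 0.07 and -0.44. What a neighbouring number means for the relation of 2 sequences is not given in the sources used here.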

How the data were processed

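Per the labels' protocols, Cy3-labelled cRNA was made from total leaf RNA. Agilent Feature Extraction, in version 10.7.3.1 per the file headers, made the deposited processed intensity; raw median intensity of spot and surroundings and 0 or 1 marks stand beside it. The deposited series table holds log2 values whose scale and centring are not stated; judged from the values, they are close to these levels centred per probe on the median (r = 0.999 to 1.000 per array; column medians 0.05, 0.00, -0.02 and -0.05). It was an alternative only, and which exact scaling the authors used stays unknown.

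Control spots were left out, outlier spots (10 to 55 per array) set to missing, and repeated spots averaged. A probe was tested if well above background on both arrays of a genotype. Genotypes were compared by limma 3.58.1 in R 4.3.3 (lmFit, eBayes, two-sided, Benjamini-Hochberg over 29949 probes, genotype the only term, 2 residual degrees of freedom plus a prior of 2.43). On simulated data of 29905 probes with 200 changed, it recovered 143 of 200 at a log2 change of 4, with 3 false calls, and 0 of 200 at 1 or at 2. The simulated spreads were shuffled over all probes. The 300 had smaller replicate differences than all tested probes, so this recovery does not describe the 300. The 300 sequences, the groupings and the named items were chosen with earlier results of these data known. Named were the 10 brightest, the 6 around rank 300, the 2 largest rises and falls among called sequences with separate genotypes, the 2 largest replicate differences per genotype, the 2 farthest in rank and the 2 with most probes. Gene lists and markers were not run, since no gene names were given. Alternatives were other scalings, background corrections, filters, variance models, thresholds and choices of sequences, a replicate block and leaving out each array.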

Additional observations from a re-analysis of the deposited data

How the results depend on the processing

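Spike-in scaling, the normexp fit without marked spots, the crossed block and choosing by 1 wild-type array while comparing with the other were chosen after seeing the data. Of the 300, 2 were called (limma). The count was 0 after planned normexp (39 at an unadjusted p under 0.05; 0 of all tested probes called), without the filter on dim probes (8; 46 or 0.105% of all called), with a replicate block (4; 38 or 0.127% called), and for sets chosen by the BnCRY2aOE mean (7) or all 4 arrays (7) or limited to 100 sequences (4). It was 1 for the set chosen by wild type replicate 2 alone. Leaving out 1 array gave 0 to 1, and 37 to 211 of all probes, beside 136 with all arrays; the lone array was assumed to vary like the other genotype. It was 2 under the other scalings, the authors' table, kept outliers, both variance models, an adjusted p under 0.1 and the crossed block. Over all probes, 62 were called after normexp without marked spots and 30 when probes had to be well above background on all 4 arrays. Each time 2 of the 300 were called. Planned normexp estimated background means of -31.7 and -295 brightness units on BnCRY2aOE replicates 1 and 2, against 4.37 and 3.03 without marked spots. The median difference of the 300 was -0.17. It was -0.0452 after quantile normalization, -0.72 after planned normexp (0.31 over all tested probes) and -0.15 after normexp without marked spots. Under spike-in scaling it was 0.0014, with 148 sequences lower and 152 higher, and without 1 array -0.21 to -0.16. The cause was not tested. Sequences kept among the brightest numbered 278, and 265 to 279 without 1 array. They were 94 of 100 and 920 of 1000 for other set sizes. The mean share of signal on the BnCRY2aOE arrays was 51.1%; it was 50.3% from raw signal minus local background, 49.4% when probes of a sequence were averaged for the choice, 34.2% for 100 and 67.6% for 1000 sequences. The chosen probe was brightest in BnCRY2aOE for 64 of 68 sequences, 59 after planned normexp. Same-numbered arrays did not deviate together (r = -0.162 over tested probes), and nothing in the labels pairs them; the crossed numbers as a block gave 167 called probes. With the replicate block both named falls had an adjusted p of 0.129 (limma). Slide as a block was not run, since there was 1 slide. Without the filter on dim probes 43603 probes were tested in place of 29949.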
